A study of Mus musculus with 6 samples.

Results

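The genes described here encode the glucose transporters and enzymes of glycolysis, the proteins that make and export lactate, and the core of the cellular response to low oxygen. They were chosen by symbol as a list of 36 genes, of the 55401 genes in the expression table. The list matched 37 rows, since Aldoa has 2. Of these, 27 rows belong to glycolysis and lactate handling and 10 to the hypoxia response, and both groups are treated apart below.

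Glycolysis splits glucose into pyruvate in 10 enzymatic steps and is the route by which cultured fibroblasts take much of their energy. Most steps have several isoenzymes, encoded by separate genes. Lactate dehydrogenase turns pyruvate into lactate, which leaves the cell through monocarboxylate transporters, while pyruvate dehydrogenase kinases hold pyruvate back from the mitochondria. Many of these genes are known targets of the hypoxia-inducible factor HIF, a pair of an alpha subunit and ARNT. With oxygen present, the prolyl hydroxylases EGLN1, EGLN2 and EGLN3 mark the alpha subunit for degradation through VHL, so that HIF is controlled largely at the level of protein.

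The libraries came from NIH-3T3, an immortal line of mouse embryonic fibroblasts (WT, 3 libraries), and from a mutated derivative of it (MU, 3 libraries). Both were grown in DMEM with 10% fetal bovine serum and antibiotics at 37 °C in 5% CO2. The series' title concerns errors of mitochondrial translation. The labels give the genotype of MU only as a mutation, without naming the gene, how it was made or whether MU is 1 clone, and do not say that the libraries of a group came from separate cultures. The p-values below therefore measure the spread between these libraries, which may be technical. Values are TPM, read abundances scaled for gene length and to 1 total for every library. They keep no sequencing depth, so the depth is unknown. In bulk RNA, fewer cells with a transcript and less of it per cell cannot be told apart.

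Between 13944 and 14146 genes reached 1 TPM in a library. Pairwise correlations across genes were 0.949 to 0.966 within WT, 0.971 to 0.976 within MU and 0.937 to 0.945 between the groups. All 10 fibroblast markers were above 1 TPM in every library, and those of epithelium, endothelium, leukocytes, muscle, adipocytes and neurons summed to at most 5.71 TPM per list. The share of TPM from mitochondrial DNA was 8.60% to 12.5% in WT and 13.9% to 15.3% in MU. Of the 6 libraries, 3 leaned with GC content: the rank correlation across genes between GC content and a library's deviation from the mean was 0.332 in WT replicate 2, −0.252 in WT replicate 3 and 0.169 in MU replicate 3, and −0.123 to −0.0884 in the others. Results that change without one of these libraries are given with and without it.

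HIF is known to bind DNA at the core letters ACGTG or GCGTG, so the sequences upstream of 4 genes are shown first. They are the largest called fall (Pgk1) and rise (Eno3) of glycolysis and both largest falls of the hypoxia group (Ankrd37, Egln3), chosen after their values were seen. The windows below run from 250 to 21 bases upstream of the RefSeq start (GRCm38.p6), 5′ to 3′ on the gene's strand, with matches on either strand in capitals. They belong to Pgk1 (chrX:106186850-106187079, plus strand), Egln3 (chr12:54203895-54204124, minus strand), Ankrd37 (chr8:45999871-46000100, minus strand) and Eno3 (chr11:70656926-70657155, plus strand).
Pgk1: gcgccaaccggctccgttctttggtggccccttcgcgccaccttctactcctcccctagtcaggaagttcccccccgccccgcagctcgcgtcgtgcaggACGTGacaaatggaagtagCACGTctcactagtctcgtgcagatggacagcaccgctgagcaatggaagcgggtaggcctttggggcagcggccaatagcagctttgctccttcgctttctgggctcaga
Egln3: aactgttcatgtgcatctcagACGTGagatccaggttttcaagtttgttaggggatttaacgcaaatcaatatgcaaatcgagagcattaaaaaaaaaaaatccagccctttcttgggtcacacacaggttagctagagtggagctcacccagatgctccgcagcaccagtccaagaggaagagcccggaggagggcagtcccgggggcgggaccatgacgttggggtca
Ankrd37: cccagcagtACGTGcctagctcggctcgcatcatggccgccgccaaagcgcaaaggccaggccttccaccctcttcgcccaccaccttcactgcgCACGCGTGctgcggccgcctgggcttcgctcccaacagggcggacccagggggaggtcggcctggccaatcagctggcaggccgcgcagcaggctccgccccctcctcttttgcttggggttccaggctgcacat
Eno3: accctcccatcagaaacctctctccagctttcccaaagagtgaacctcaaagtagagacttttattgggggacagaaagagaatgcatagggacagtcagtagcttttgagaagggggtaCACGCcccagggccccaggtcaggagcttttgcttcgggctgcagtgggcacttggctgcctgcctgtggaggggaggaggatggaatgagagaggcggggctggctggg
Pgk1 holds matches that begin 150 and 131 bases upstream of the start. Egln3 has 1 at 229 bases, Eno3 has 1 at 130 bases, and Ankrd37 has 3 at 241, 155 and 152 bases, the last 2 of which overlap. The counts that follow use all 250 bases upstream of a start, including the last 20 that are not printed. Of the 34 listed genes with a RefSeq window, 30 (88.2%) had a match before at least 1 start, against 62.1% of the 9600 tested genes with a window. By window, the shares were 80.4% of 51 for the listed genes, 56.1% of 12246 for the tested genes and 38.6% of all 32851. All 11 genes called below had a match, as did 19 of the 23 others. Such a match is a description of the letters and no evidence of binding.

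Across the list, more genes were lower in MU than higher. Of the 34 rows with enough signal to test, 9 fell and 2 rose, and these 11 make up 32.4%, against 18.8% of all 14209 genes tested (limma, Benjamini-Hochberg adjusted p under 0.05). Over all genes, 11.6% fell and 7.12% rose. Higher genes were 37.9% of the calls over all genes, and 47.1% to 48.8% with median-of-ratios, quantile or mitochondria-free scaling or a correction for GC content and length. The median log2 change of the 34 rows was −0.22, beside −0.05 for all genes. In 20 rows (58.8%) the 3 MU values lay wholly outside the 3 WT values, 13 below and 7 above, where 39.2% of all genes did so (23% below, 16.1% above). Slc2a3, which encodes the GLUT3 transporter, Aldoc, the brain aldolase, and Epas1, which encodes HIF-2 alpha, stayed below 1 TPM in every library and were not tested. Slc2a3 read 0.0993, 0.249 and 0.0488 TPM in WT and 0.0574, 0.0667 and 0 TPM in MU, and Aldoc read 0.476, 0.458 and 0.504 TPM in WT and 0.950, 0.246 and 0.471 TPM in MU. Both overlapped between the groups.

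**Figure D1:**
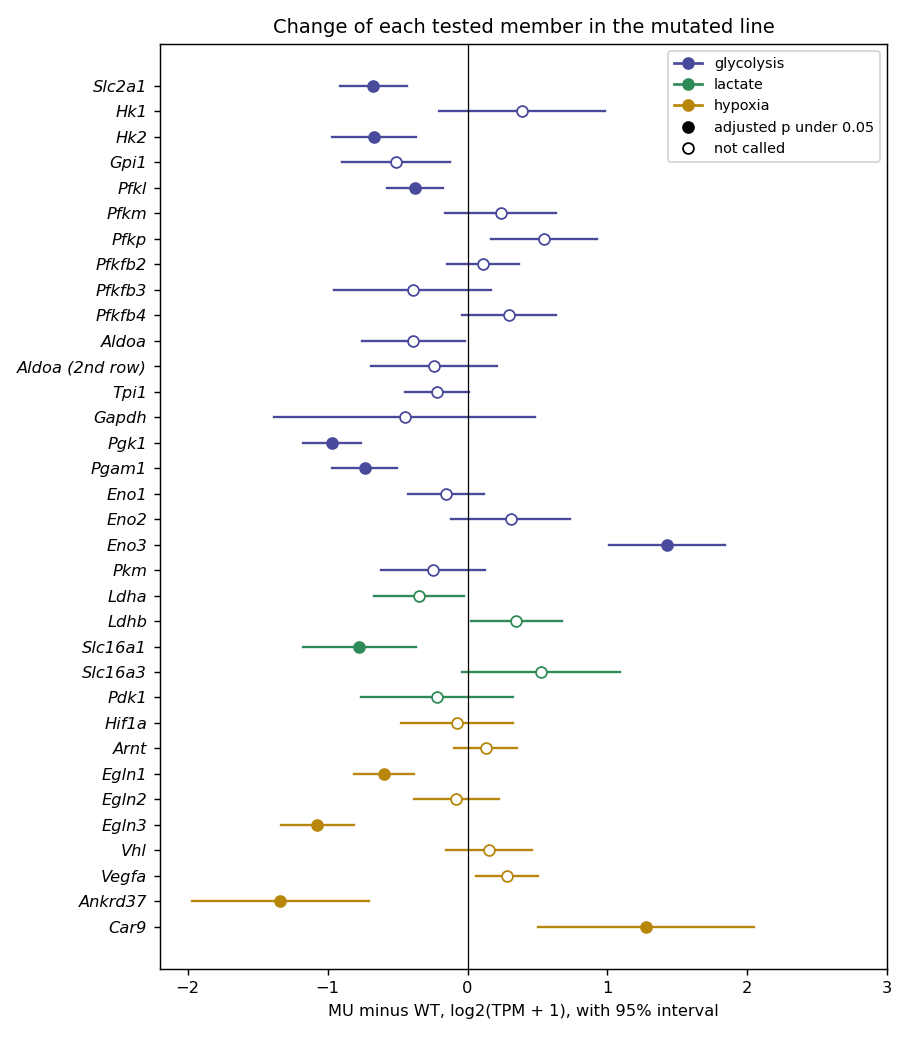
Log2 change in MU relative to WT (x axis, log2(TPM + 1) scale) for each of the 34 tested rows of the list, in pathway order, with 95% intervals from limma over 3 libraries a group. Filled points are the 11 genes with an adjusted p under 0.05, of which Eno3 and Car9 lie to the right of 0.

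Among the 25 tested rows of glycolysis and lactate handling, 6 fell and 1 rose, with a median log2 change of −0.24. The share called was 28.0%, against 18.8% of all genes tested. The transporter mRNA tested was lower. Slc2a1 encodes GLUT1, the main glucose transporter of fibroblasts (chromosome 4, 119108711 to 119137983, GRCm38). It read 96.6, 102 and 104 TPM in WT and 58.0, 60.4 and 71.1 TPM in MU. Every MU library was below every WT library, and the 1.59-fold fall (log2 change −0.67, SE 0.10) passed at a limma adjusted p of 0.00672.

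Of the hexokinases, which trap glucose as its phosphate, 1 fell. Hk2, the inducible form, read 14.0, 17.03 and 13.2 TPM in WT and 8.43, 9.45 and 8.69 TPM in MU. It fell by 0.67 on the log2 scale (SE 0.13, limma adjusted p = 0.0144), and without any 1 MU library the adjusted p was 0.0512 to 0.0636. Hk1, the constitutive form, read 32.6, 27.7 and 16.0 TPM in WT and 29.1, 33.8 and 34.1 TPM in MU, so its groups overlapped. The sum of both was 40.2 ± 9.57 TPM in WT, against 41.2 ± 3.18 TPM in MU (mean ± SD, n = 3 each). Within that sum, the share of Hk2 was 30.1%, 38.0% and 45.3% in WT and 22.5%, 21.8% and 20.3% in MU.

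Phosphofructokinase commits sugar to glycolysis and has 3 kinds of subunit, of which 1 fell. Their summed mRNA averaged 104 ± 7.56 TPM in WT, against 98.2 ± 4.69 TPM in MU. Pfkl, the liver-type subunit, read 63.9, 63.7 and 66.9 TPM in WT and 46.2, 49.9 and 53.2 TPM in MU. Its fall of 0.38 on the log2 scale (SE 0.08) was the smallest one called (limma adjusted p = 0.0259). It did not pass without WT replicate 1 (0.0708), without any 1 MU library (0.0591 to 0.1104), with quantile normalization (0.0688) or after rescaling without the genes of mitochondrial DNA (0.0548), in limma fits whose adjusted p ranged from 0.0170 to 0.1104.

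Pfkp, the platelet-type subunit, had higher values in MU, with 10.2, 11.4 and 7.48 TPM in WT and 14.9, 13.5 and 14.7 TPM in MU. Its groups did not overlap, yet the log2 change of 0.54 (SE 0.16) missed the threshold (limma adjusted p = 0.0580). Without WT replicate 2 it did pass (0.0295, range over the left-out libraries 0.0295 to 0.167, limma). It also passed with a minimum of 5 TPM, after rescaling without mitochondrial DNA and with the GC and length correction (range over the settings with all libraries 0.0387 to 0.127, limma). Pfkm, the muscle-type subunit, read 23.7, 37.1 and 26.9 TPM in WT and 32.1, 35.4 and 34.7 TPM in MU, an overlap that rests on WT replicate 2 (limma adjusted p = 0.371 with it and 0.0292 without). Pfkp overlaps Pitrm1 and Pfkm overlaps Senp1 on the opposite strand. No label or header says whether counting used the strand, so reads of such pairs cannot be told apart.

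The PFKFB enzymes set the level of fructose 2,6-bisphosphate, the activator of phosphofructokinase. The summed mRNA of Pfkfb2, Pfkfb3 and Pfkfb4 was 16.6 ± 1.29 TPM in WT, against 17.1 ± 1.06 TPM in MU. This sum leaves out Pfkfb1, a gene of the wider glucose list below. Pfkfb1 read 6.30, 7.97 and 9.68 TPM in WT and 4.08, 3.59 and 3.35 TPM in MU. It fell by 0.93 on the log2 scale (SE 0.17, limma adjusted p = 0.0142), and its neighbouring genes had a median log2 change of −0.38. None of Pfkfb2, Pfkfb3 and Pfkfb4 passed (limma adjusted p = 0.532, 0.299 and 0.198). Among them, Pfkfb4 was the one without overlap, at 3.32, 3.40 and 2.78 TPM in WT and 4.39, 3.85 and 4.07 TPM in MU.

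The largest falls among glycolytic enzymes were in Pgk1 and Pgam1. Pgk1 encodes phosphoglycerate kinase, the first step that yields ATP (chromosome X, 106187100 to 106203699). It read 977, 970.5 and 1067 TPM in WT and 505, 521 and 509 TPM in MU, a difference far beyond the spread within either group. The 1.96-fold fall (log2 change −0.97, SE 0.09) had the smallest adjusted p of the list (limma, 0.00132). Of the tested genes on chromosome X, 71.1% had a lower mean in MU, and the 40 nearest tested protein-coding genes had a median log2 change of −0.59 relative to all genes. After centring on those neighbours the fall of Pgk1 was 0.38 on the log2 scale (limma adjusted p = 0.0344, range over the alternatives 0.000689 to 0.0344).

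Pgam1 encodes phosphoglycerate mutase, which acts right after PGK1 (chromosome 19, 41911923 to 41918660). Its values were 719, 846 and 748 TPM in WT and 474, 445 and 466 TPM in MU, a fall of 0.74 on the log2 scale (SE 0.10, limma adjusted p = 0.00442). The fall passed without each library in turn (0.00430 to 0.0347).

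Other enzymes of the upper and middle pathway had lower means in MU but did not pass. Gpi1, glucose phosphate isomerase, read 307, 374 and 239 TPM in WT and 210, 208 and 217 TPM in MU (log2 change −0.51, limma adjusted p = 0.0736). Here the WT libraries, not the MU libraries, were widely spread, and without WT replicate 3 the adjusted p was 0.0133 (limma; 0.0133 to 0.192 over the left-out libraries). Aldoa, the main aldolase, had wide WT values too, with 688, 818 and 548 TPM in WT and 497, 502 and 553 TPM in MU (adjusted p = 0.136, and 0.0260 without WT replicate 3, limma).

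The second Aldoa row, an upstream locus under the same symbol, read 9.09, 9.18 and 6.33 TPM in WT and 7.34, 5.40 and 7.54 TPM in MU, and overlapped (limma adjusted p = 0.426). Tpi1, triose phosphate isomerase, read 388, 434 and 368 TPM in WT and 326, 339 and 358 TPM in MU. Its groups did not overlap, with a log2 change of −0.22 and a limma adjusted p of 0.166, which was 0.0454 after centring on neighbouring genes (0.0454 to 0.668 over the alternatives).

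Gapdh, often used as a reference gene, had the largest limma SE of the 34 tested rows. It read 1192, 2287 and 703 TPM in WT and 896, 882 and 954 TPM in MU. The WT libraries thus enclosed all MU libraries, and the log2 change of −0.45 had an SE of 0.39 (limma adjusted p = 0.476). Leaving out 1 library at a time moved it from −0.86 to −0.01, the latter without WT replicate 2.

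Enolase, the step before pyruvate kinase, showed the only rise in glycolysis that passed. Eno3 encodes the muscle-type enolase (chromosome 11, 70657202 to 70662513). Its values were 19.0, 25.8 and 16.1 TPM in WT and 49.95, 57.6 and 58.1 TPM in MU. The lowest MU library was well above the highest WT library, and the 2.68-fold rise (log2 change 1.42, SE 0.17) passed at a limma adjusted p of 0.00352 and without each library in turn (0.00196 to 0.0225). The 5 muscle markers summed to 0.228 to 0.389 TPM in WT and 0.631 to 1.22 TPM in MU. Des read 0.157, 0.19 and 0 TPM in WT and 0.997, 0.545 and 0.961 TPM in MU, without overlap. Ckm read 0.207, 0.133 and 0.203 TPM in WT and 0.222, 0.0861 and 0.222 TPM in MU. Myh3 was at most 0.0252 TPM, and Myod1 and Myog were at 0 in all 6 libraries.

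Eno1, the ubiquitous enolase, had overlapping groups, with 804, 742 and 632 TPM in WT and 635, 640 and 675 TPM in MU (log2 change −0.15, limma adjusted p = 0.397). The overlap rests on WT replicate 3, without which the log2 change was −0.25 and did not pass either (limma adjusted p = 0.0963). Eno2, the neuronal form, also overlapped, with 26.7, 30.3 and 19.6 TPM in WT and 28.1, 30.1 and 36.3 TPM in MU (0.282). Eno3 remained a small part of all enolase mRNA, from 2.23%, 3.24% and 2.41% in WT to 7.004%, 7.91% and 7.56% in MU.

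Pkm, pyruvate kinase, had the highest TPM of the list, with 2916, 2119 and 2134 TPM in WT and 2090.0, 1991 and 1897 TPM in MU. All MU values lay below the lowest WT value, but by little, and the log2 change of −0.25 did not pass (limma adjusted p = 0.320). The split of Pkm into its M1 and M2 splice forms is not resolved by values per gene.

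**Figure D2:**
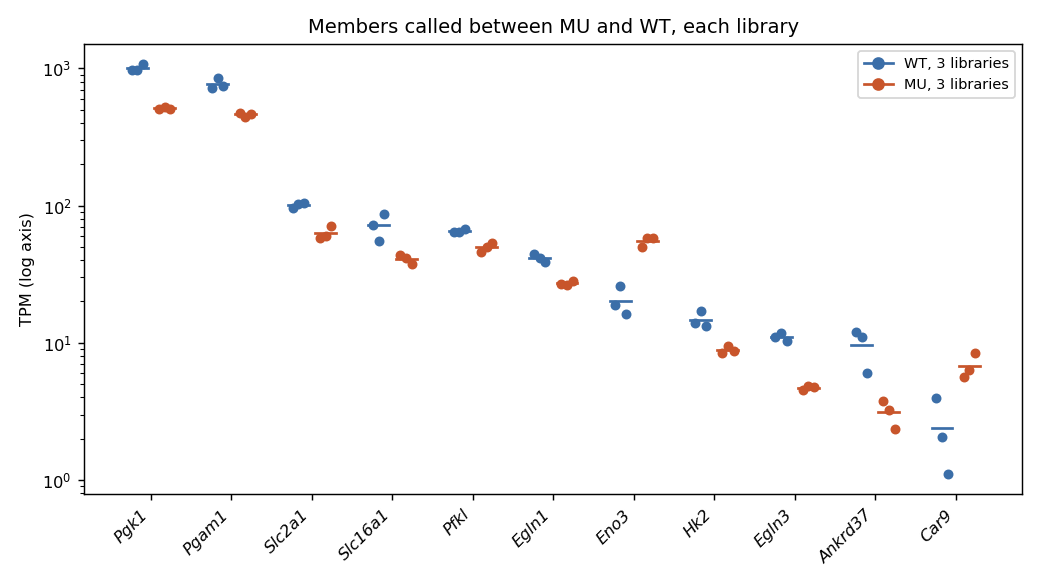
TPM of the 11 called genes in each library (log axis), with WT in blue and MU in orange and the mean of 3 libraries as a line. No gene shows an overlap between the groups, and Eno3 and Car9 are the 2 with MU above WT.

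The 16 listed genes of the 10 steps were summed without their near-identical copies, which are described below. Copies of Gapdh alone summed to 3580 ± 770 TPM in WT and 2637 ± 29.5 TPM in MU, beside 7872 ± 1135 and 5829 ± 57.9 TPM for the listed genes. The listed genes made up 0.819%, 0.881% and 0.661% of all TPM in WT and 0.585%, 0.576% and 0.588% in MU. All MU libraries were below all WT libraries, and the MU libraries differed little from each other. Without Gapdh, whose WT values were so uneven, the shares were 0.648% ± 0.0546 and 0.492% ± 0.00360. As a share of TPM outside mitochondrial DNA they were 0.881% ± 0.111 and 0.684% ± 0.00616, so the order held when the larger mitochondrial share of MU was set aside. Without copies, the ratio differed between steps. MU stood at 50.9% of the WT mean for phosphoglycerate kinase and 59.9% for phosphoglycerate mutase. It stood at 102% for hexokinase, 95.4% for enolase and 94.7% for phosphofructokinase. The hexokinase ratio depended on WT replicate 3: WT sums were 46.6, 44.8 and 29.2 TPM, MU sums 37.5, 43.3 and 42.8 TPM. Without that replicate, all MU sums were below the WT sums. Copies changed other ratios too. With them, Pgam1 averaged 1437 TPM (WT) and 983 TPM (MU), Eno1 1751 and 1500 TPM, and Pgk1 1092 and 512 TPM.

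Because a share within a library does not depend on how that library was scaled, isoform shares were compared for 14 genes. In 12 of them the groups did not overlap, 1 of which is Epas1, at most 0.0784 TPM. Shares of 1 family are tied to each other and are not separate observations, and no share over all genes was computed for this measure. With 3 libraries against 3, a two-sided exact permutation test cannot go below p = 0.1, the value of each of these 12, or 0.117 after adjustment over the 14. Of phosphofructokinase mRNA, Pfkl made up 62.7% ± 5.19 in WT and 50.6% ± 1.12 in MU, while Pfkm went from 27.9% ± 4.61 to 34.7% ± 1.05 and Pfkp from 9.32% ± 1.68 to 14.7% ± 1.202. Eno2 shares were 3.29% ± 0.449 and 4.27% ± 0.407, or 1.43% ± 0.339 and 1.98% ± 0.204 with the near-identical Eno1 copies described below in the sum. The shares of Aldoc and Slc2a3 were below 0.25% and overlapped (exact permutation p = 0.7 and 0.5).

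**Figure D3:**
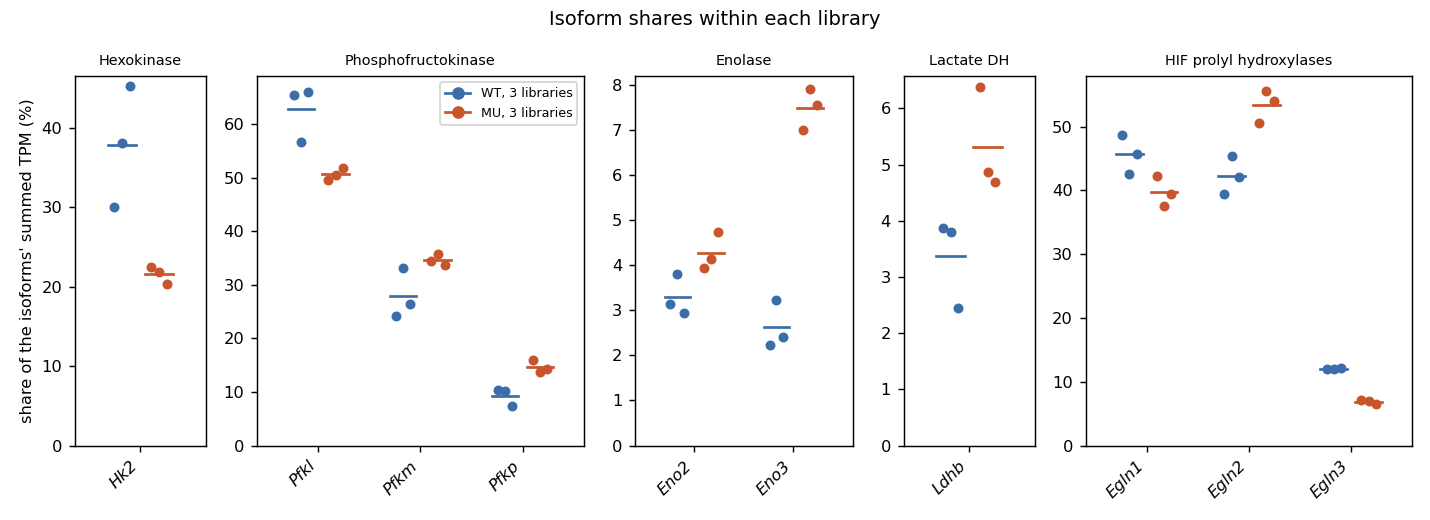
Share of each isoform in the summed TPM of its family (y axis, percent) in each of 3 WT (blue) and 3 MU (orange) libraries, with the mean as a line. Hk2, Pfkl, Egln1 and Egln3 lie lower in MU, and Pfkm, Pfkp, Eno2, Eno3, Ldhb and Egln2 lie higher.

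Of the 5 genes that handle pyruvate and lactate, 1 passed. Slc16a1 encodes the monocarboxylate transporter MCT1 (chromosome 3, 104638668 to 104658462). It read 72.7, 55.1 and 87.0 TPM in WT and 43.4, 41.7 and 37.5 TPM in MU, a 1.71-fold fall (log2 change −0.77, SE 0.17, limma adjusted p = 0.0240). All MU libraries were below WT replicate 2, the lowest of WT. The call was lost without WT replicate 1 (0.0818), without any 1 MU library (0.0689 to 0.0902), with no filter on low values (0.0626) and after centring on neighbouring genes (0.0613), whereas without WT replicate 2 it passed at 0.00580 (limma).

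Slc16a3, which encodes MCT4, the exporter typical of highly glycolytic cells, was near the lower limit at 0.339, 0.797 and 1.07 TPM in WT and 1.19, 1.58 and 1.63 TPM in MU. The log2 change of 0.53 did not pass (limma adjusted p = 0.173). Its share of the summed mRNA of both transporters was 1.03% ± 0.505 in WT and 3.50% ± 0.757 in MU, so Slc16a1 made up nearly all of it in both lines.

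The lactate dehydrogenase genes did not pass. Ldha, whose product favours lactate formation, read 1143, 1151 and 1488 TPM in WT and 939, 957 and 1059 TPM in MU (log2 change −0.35, SE 0.14, limma adjusted p = 0.127). Ldhb, whose product favours pyruvate, read 45.9, 45.6 and 37.2 TPM in WT and 64.0, 49.0 and 52.2 TPM in MU (log2 change 0.35, SE 0.14, limma adjusted p = 0.126). In both genes the groups did not overlap, with MU below WT for Ldha and above it for Ldhb. The share of Ldhb in their sum was 3.37% ± 0.805 in WT and 5.32% ± 0.927 in MU. Pdk1, a pyruvate dehydrogenase kinase induced by HIF, was at 36.3, 24.1 and 21.7 TPM in WT and 18.4, 22.9 and 28.0 TPM in MU, with overlapping groups (limma adjusted p = 0.558).

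Glycolytic genes have many near-identical copies in the mouse genome, mostly processed pseudogenes, and the values above depend on how reads were split between them. Transcripts at other loci with at least 90% identity over at least 500 bases were found for 10 of the listed genes. Gapdh had 163 such copies, of which 155 are pseudogenes. One of them, Gm13394 on chromosome 2, is 99.9% identical and was listed at 3536 ± 779 TPM in WT, against 2573 ± 17.9 TPM in MU, above Gapdh itself at 1394 ± 811 and 911 ± 38.2 TPM. Gapdh and its copies together read 5438, 6044 and 3441 TPM in WT and 3504, 3519.6 and 3622 TPM in MU, and still overlapped (log2 change −0.45, limma adjusted p = 0.215).

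The falls of Pgk1 and Pgam1 kept their direction and passed with the copies added. Pgk1 and its copies, Gm5537 and Pgk1-rs7, summed to 1079.5, 1129 and 1067 TPM in WT and 505, 521 and 509 TPM in MU. This was a fall of 1.09 on the log2 scale (limma adjusted p = 0.000689), since Gm5537 was listed at 100.1 and 105 TPM in WT replicates 1 and 2, at 0 in WT replicate 3 and at or below 0.00849 TPM in MU. Pgam1-ps2, identical to Pgam1 over the aligned bases, was listed at 734, 427 and 838 TPM in WT and 504, 532 and 530 TPM in MU. Pgam1 and its copies gave 1453, 1273 and 1586 TPM in WT and 978, 977 and 995 TPM in MU, a fall of 0.54 on the log2 scale (limma adjusted p = 0.0195).

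Eno1 shares its sequence with Eno1b (723 ± 81.3 TPM in WT and 581 ± 41.4 TPM in MU) and Gm4735 (302 ± 188 and 268 ± 22.8 TPM). With its copies it read 1862, 1647 and 1743 TPM in WT and 1473, 1476 and 1550 TPM in MU. The groups then no longer overlapped, though the log2 change of −0.22 did not pass (limma adjusted p = 0.176). With these copies in the enolase sum, the share of Eno3 was 1.14% ± 0.330 in WT and 3.48% ± 0.237 in MU. Copies of Gpi1, Aldoa, Tpi1, Pkm, Ldha and Ldhb summed to at most 4.83 TPM in any library.

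**Figure D4:**
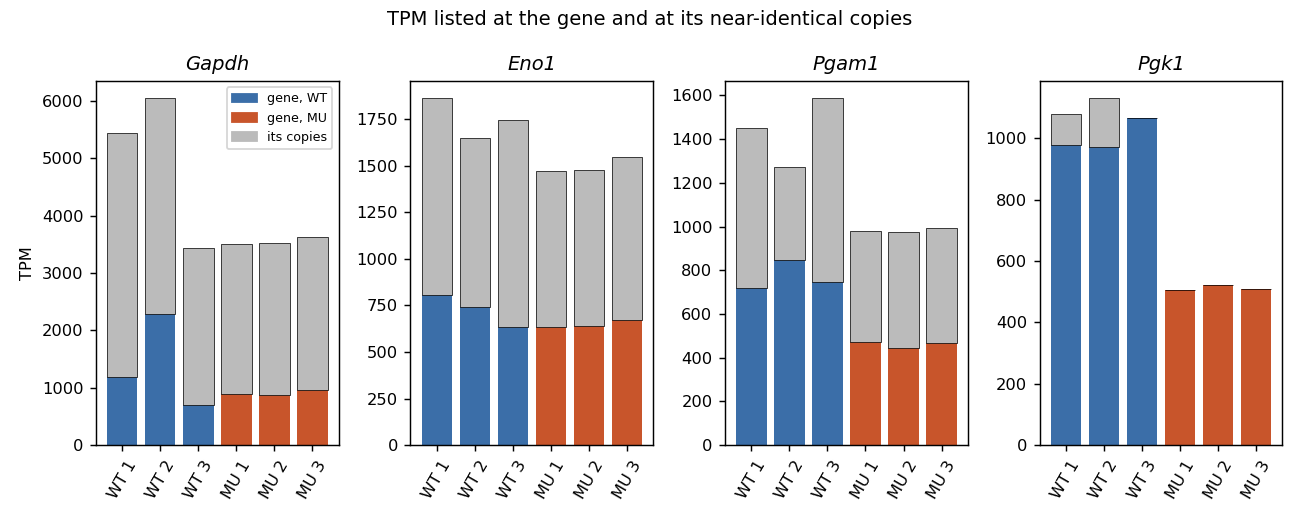
TPM of 4 glycolytic genes (blue in WT, orange in MU) and of their near-identical copies (grey, stacked) in each library. Copies exceed the gene in every library for Gapdh and Eno1 and lie on either side of it for Pgam1, and for Pgk1 they appear in 2 WT libraries.

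In the hypoxia group, 9 of 10 genes were tested, of which 3 fell and 1 rose, with a median log2 change of −0.08. The share called was 44.4% of these 9 genes, against 18.8% of all genes tested. The tested subunits of HIF did not pass. Hif1a, the oxygen-sensitive subunit, read 123, 83.3 and 124 TPM in WT and 108, 106 and 94.0 TPM in MU, with a log2 change of −0.08 (95% interval −0.48 to 0.32, limma adjusted p = 0.791). That sign is not stable: quantile normalization gave 0.06, and leaving out WT replicate 1 or 3 gave 0.01 and 0.02. Every MU value lay below WT replicates 1 and 3, so the overlap of the groups rests on WT replicate 2. Over the left-out libraries the log2 change of Hif1a ranged from −0.26 to 0.02, and the limma adjusted p from 0.0742 to 0.971. Arnt, its partner, read 36.8, 32.8 and 33.2 TPM in WT and 39.7, 38.3 and 34.7 TPM in MU (log2 change 0.13, limma adjusted p = 0.392). Vhl was at 15.5 ± 0.613 TPM in WT, against 17.6 ± 2.67 TPM in MU (0.452). Epas1 was barely detected, at 0.0413, 0.0251 and 0.0411 TPM in WT and 0.0395, 0.0408 and 0.0784 TPM in MU, and overlapped.

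Of the 3 prolyl hydroxylases, 2 fell. Egln3 encodes PHD3, the form most strongly induced by hypoxia (chromosome 12, 54178981 to 54203860). It read 10.99, 11.7 and 10.4 TPM in WT and 4.57, 4.85 and 4.74 TPM in MU, with little spread in either group. On the scale of TPM + 1 this was a 2.10-fold fall (log2 change −1.07, SE 0.11, limma adjusted p = 0.00197). The fall passed without each library in turn (0.00496 to 0.0145), and the neighbouring genes had a median change of 0.00.

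Egln1 encodes PHD2, the main oxygen sensor of most cells (chromosome 8, 124908587 to 124949324). Its values were 44.7, 41.6 and 38.8 TPM in WT and 26.7, 26.4 and 28.4 TPM in MU, a fall of 0.60 on the log2 scale (SE 0.09, limma adjusted p = 0.00685). Of the tested genes on chromosome 8, 76.4% had a lower mean in MU. The 32 neighbours of Egln1 had a median log2 change of −0.44 relative to all genes, and after centring on them the change was −0.16 and no longer passed (limma adjusted p = 0.265, range over the alternatives 0.00391 to 0.265).

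Egln2, which encodes PHD1, had overlapping groups, with 36.2, 44.4 and 35.8 TPM in WT and 32.0, 38.9 and 38.8 TPM in MU. Its log2 change of −0.08 (limma adjusted p = 0.708) was 0.00 with quantile normalization and turned to 0.02 and 0.01 without WT replicate 2 and MU replicate 1. Within the summed mRNA of the 3 hydroxylases, which was 91.5 ± 6.37 TPM in WT, against 68.5 ± 4.56 TPM in MU, the share of Egln2 was 42.3% ± 3.02 in WT and 53.4% ± 2.51 in MU. Egln1 went from 45.6% ± 3.03 to 39.7% ± 2.32 and Egln3 from 12.1% ± 0.143 to 6.90% ± 0.316, so Egln1 had the highest share in each WT library except replicate 2, and Egln2 in each MU library.

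Of the 3 listed HIF targets outside glycolysis, 1 fell and 1 rose. Ankrd37 encodes a small ankyrin-repeat protein (chromosome 8, 45996902 to 46005707). It read 11.9, 10.96 and 6.07 TPM in WT and 3.76, 3.22 and 2.36 TPM in MU. It fell by 1.34 on the log2 scale (SE 0.26, limma adjusted p = 0.0173), and by 1.12 after centring on neighbouring genes (0.0353). The call was lost without WT replicate 1 (0.0629), MU replicate 2 (0.0607) or MU replicate 3 (0.0648) and with no filter (0.0523), over a range of 0.00709 to 0.0648 (limma). Ankrd37 overlaps Ufsp2 on the other strand, which was at 42.0 TPM in WT, against 34.5 TPM in MU.

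Car9 encodes the cell-surface carbonic anhydrase IX, a widely used marker of hypoxia (chromosome 4, 43506966 to 43513729). It rose, from 3.96, 2.07 and 1.11 TPM in WT to 5.68, 6.30 and 8.38 TPM in MU (log2 change 1.28, SE 0.32, limma adjusted p = 0.0379). The WT libraries differed among themselves by more than the nearest WT and MU libraries did. The call held without WT replicate 1 (0.0228) and was lost without any 1 of the other 5 libraries (0.0572 to 0.125, limma), as well as with no filter (0.107) and after centring on neighbouring genes (0.0646). Gm12454, on the other strand of Car9, was at 1.75 TPM in WT, against 2.06 TPM in MU.

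Vegfa encodes the angiogenic factor VEGF-A. It read 53.0, 60.4 and 52.4 TPM in WT and 63.1, 68.1 and 70.6 TPM in MU, with no overlap and a log2 change of 0.28 (SE 0.09) that missed the threshold (limma adjusted p = 0.0828). Without WT replicate 2 it did pass (0.0272), as it did after rescaling without the genes of mitochondrial DNA (0.0398), with quantile normalization (0.0410) and with a correction for GC content and length (0.0256), within a range of 0.0256 to 0.237 (limma).

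The counts above changed when 1 library was left out. Without any 1 MU library, Slc2a1, Pgk1 and Pgam1 were the 3 genes of glycolysis and lactate handling that fell. These 3 were the same whichever MU library was left out. Over all genes, 1071 to 1203 were then called, against 2667 with all libraries. Without WT replicate 3, 8 fell, as Gpi1 and Aldoa joined, and without WT replicate 2, 3 rose, which were Eno3, Pfkm and Pfkp. In the hypoxia group 2 to 3 fell and at most 1 rose, with Vegfa in place of Car9 without WT replicate 2.

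A list of 66 other genes, most of them of glucose metabolism, had 48 that were tested, with 3 higher and 8 lower. The share called was 22.9%, against 18.8% of all genes tested, and the median log2 change was −0.05. In 28 of the 48 (58.3%) the groups did not overlap, against 39.2% of all genes. Pdk4, a pyruvate dehydrogenase kinase that is known to rise in fasting, had the largest change. It read 7.96, 11.5 and 17.7 TPM in WT and 59.7, 78.0 and 54.9 TPM in MU, a 5.03-fold rise (log2 change 2.33, SE 0.28, limma adjusted p = 0.00327). Pck2, the mitochondrial PEP carboxykinase, rose from 59.0, 65.3 and 70.6 TPM in WT to 88.7, 81.0 and 89.3 TPM in MU (limma adjusted p = 0.0304), a call lost without WT replicate 1 (0.0846) or any 1 MU library (0.0793 to 0.117), with no filter (0.0541) and with no intensity trend (0.0531). The third gene that rose was Galt, of galactose use (9.17 ± 0.289 to 12.7 ± 1.08 TPM).

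Emb encodes embigin, a chaperone of monocarboxylate transporters. Its values were 57.7, 47.3 and 57.6 TPM in WT and 21.4, 18.8 and 15.8 TPM in MU, a 2.81-fold fall (log2 change −1.49, SE 0.14, limma adjusted p = 0.00144). Akr1b3, aldose reductase of the polyol pathway, fell from 154, 161 and 161 TPM in WT to 90.6, 86.2 and 94.3 TPM in MU (limma adjusted p = 0.00151). The other falls were Pdha1, Pfkfb1, Pgam5, Bpgm, Got1 and Pgm1. Of these, Pdha1 encodes a subunit of pyruvate dehydrogenase and read 98.5, 94.3 and 102 TPM in WT and 72.7, 70.4 and 65.9 TPM in MU. It lies on chromosome X, where its neighbours had a median log2 change of −0.44. Counts in this list were sensitive: 1 rose without WT replicate 1 or any 1 MU library and 5 without WT replicate 2, 2 to 4 fell without WT replicate 1 or any 1 MU library, and 6 rose with quantile or median-of-ratios scaling and 9 with the GC and length correction.

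A list of 63 further HIF targets and HIF partners, of which 53 were tested, gave 5 higher and 12 lower and a median log2 change of −0.10. The share called was 32.1%, against 18.8% of all genes tested. Among 11 tested genes of HIF partners and of its degradation, 1 passed (9.09%), as Arnt2 fell from 7.13 ± 0.624 to 4.41 ± 0.460 TPM. Angptl4, a secreted inhibitor of lipoprotein lipase, read 64.2, 75.7 and 96.7 TPM in WT and 19.6, 25.5 and 25.5 TPM in MU, a 3.23-fold fall (log2 change −1.69, SE 0.18, limma adjusted p = 0.00217). Plod2, a lysyl hydroxylase of collagen, read 33.0, 23.8 and 30.0 TPM in WT and 10.6, 11.4 and 8.88 TPM in MU (log2 change −1.40, limma adjusted p = 0.00247). The other falls were Ak4, Stc1, Higd1a, Fam162a, Rcor2, Bnip3, Hmox1, Tfrc and Ero1l. Of these, Stc1 read 2.88, 2.20 and 2.34 TPM in WT and 0.209, 0.163 and 0.191 TPM in MU. It thus met the filter of 1 TPM in 3 libraries through WT alone, the group where it was high. Pgf, which was not called, also met the filter through WT alone.

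In the opposite direction, Cav1, which encodes caveolin-1, read 441, 411 and 425 TPM in WT and 828, 812 and 794 TPM in MU, a 1.90-fold rise (log2 change 0.93, SE 0.08, limma adjusted p = 0.00124). Cited2, which competes with HIF-1 alpha for its coactivators, rose from 109, 99.99 and 97.6 TPM in WT to 146, 152 and 155 TPM in MU (limma adjusted p = 0.00593). Bnip3l and Lox also rose. The mitophagy receptors Bnip3 and Bnip3l moved in opposite directions, from 47.2 ± 5.12 to 27.7 ± 3.60 TPM and from 34.8 ± 3.49 to 58.9 ± 5.76 TPM. Without any 1 MU library 3 genes of this list rose, and over all left-out libraries 9 to 16 fell.

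**Figure D5:**
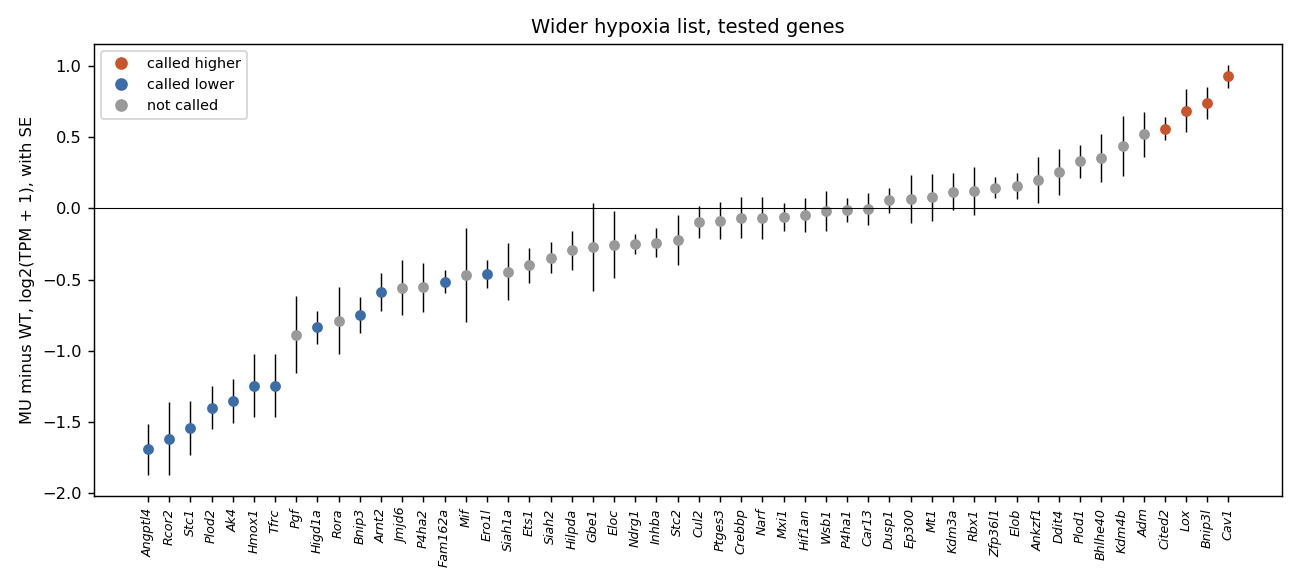
Log2 change in MU relative to WT (y axis, log2(TPM + 1) scale, bars are the SE from limma, 3 libraries a group) for 52 of the 53 tested genes of the wider hypoxia list, ordered by change. The 12 called lower (blue) and 4 called higher (orange) lie at both ends, from Angptl4 at −1.69 to Cav1 at 0.93.

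In the authors' deposited table, 13 of the 36 rows with an adjusted p passed 0.05, 10 lower and 3 higher, where 21.1% of all genes with one did. All 11 genes called here were among them. The other 2 were Gpi1 (log2 fold change −0.46, adjusted p = 0.0235 in the authors' deposited table) and Pfkp (0.59 and 0.00732 in the authors' deposited table).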

How the data were processed

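For each gene and library the authors deposited a log2 value, which the headers and the range of values show to be log2(TPM + 1). A second deposited table gives, for each gene, the authors' log2 fold, p-value, adjusted p-value and mean TPM of both groups. The submitters' processing notes name DESeq2 1.20.0, featureCounts 1.5.0-p3, HISAT2 2.05.0 and FastQC 0.11.4, with mm10 as the build (the assembly of GRCm38). The annotation, strand setting and method behind TPM were not given in the sources used here. Values have at most 4 digits, so high TPM come in steps.

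Values were returned to TPM, and genes with at least 1 TPM in at least 3 of 6 libraries (14209) were tested as log2(TPM + 1) with limma 3.58.1 in R 4.3.3 (intensity trend, two-sided, no covariate), with Benjamini-Hochberg adjustment over all of them. Folds given beside a limma log2 change were computed from it and so are folds of TPM + 1. A difference or fold on this scale understates the change of low genes. The test was checked on simulated data. Annotation was GENCODE M21, matched for 55141 of 55401 genes, and promoter windows came from RefSeq. Copies were found with blastn 2.17.0, and exact tests used scipy 1.17.1.

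The genes and lists were chosen with earlier results of these data known. Values per library are given for genes that were called, did not overlap, reached a mean of 100 TPM or belong to a compared isoform family, and in each wider list for the 2 higher and 2 lower genes with the smallest adjusted p. Other genes named from those lists, Bnip3, Bnip3l, Pdha1, Pfkfb1, Galt, Stc1 and Arnt2 with their values, were chosen after their values were seen.

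Settings varied were pseudocounts of 0.1 and 5, a replicate block, no filter, a minimum of 5 TPM, rescaling without mitochondrial DNA, median-of-ratios and quantile scaling, no trend, robust estimation, each library left out, centring on up to 20 neighbouring genes on each side and a loess correction (span 0.3) for GC content and length. Adding near-identical copies was chosen after seeing the data. A gene of the wider hypoxia list, counted in its totals, is not reported here.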

Additional observations from a re-analysis of the deposited data

How the results depend on the processing

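All calls of the listed genes were the same in limma with pseudocounts of 0.1 and 5, with median-of-ratios scaling, robust estimation and no trend, and with near-identical copies added, a setting chosen after seeing the data. Other settings changed counts. With the replicate block, 456 genes rose and 637 fell among all tested, and 0 hypoxia genes rose (limma, 1 at an unadjusted p under 0.05); Pfkl (adjusted p = 0.0921), Slc16a1 (0.0660), Car9 (0.0933) and, in the wider list, Pck2 (0.0951) were lost. The labels do not say whether the replicate numbers pair the libraries. Deviations of libraries with the same number correlated at 0.05, 0.015 and −0.074, and not every library correlated best with its own number. With 3 libraries a group, such correlations cannot exclude a pairing. With the GC and length correction, 1611 genes rose. In glycolysis and lactate handling 2 genes rose with a minimum of 5 TPM, with rescaling without mitochondrial DNA and with the GC and length correction, Pfkp being the second. In the hypoxia group, 0 rose with no filter or position centring (limma, 2 at an unadjusted p under 0.05), and 2 with that rescaling, quantile normalization or the GC and length correction. The cause was not tested.

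Without 1 library in turn, 427 to 1153 genes rose and 644 to 2238 fell, with the fewest without WT replicate 1 or any 1 MU library; 1 to 3 rose and 3 to 8 fell in glycolysis and lactate handling, and 0 to 1 rose and 2 to 3 fell in the hypoxia group. With quantile normalization, the log2 change of Hif1a was 0.06 and that of Egln2 0.00; left-out libraries took them from −0.26 to 0.02 and from −0.13 to 0.02. The share of Slc2a3 turned to 0.513 percentage points higher in MU with 1 TPM added to each isoform, and that of Aldoc ranged from −0.00519 to 0.0657 points over the left-out libraries. The tables used here give no counts, so no count test was run and the depth limit of each value is unknown.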
